A study of Rattus norvegicus with 12 samples.

Results

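The smooth muscle contractile genes are 10 genes for the proteins that build, hold and regulate the contractile apparatus of vascular smooth muscle: Acta2, Actg2, Tpm1, Cnn1, Tagln, Myh11, Myl9, Mylk, Des and Myocd. They were read here in sorted endothelial cells (ECs), and they were chosen by name. Each was taken from a probe set annotated to that symbol alone, and each had 1 such probe set. They make up 10 of the 14508 genes that the array table names in this way. All 10 passed the filter on low signals, a mean over the 12 arrays at or above that of the lys poly-A control, and 9 of them were at or above that control on every array. The exception was Des, which reached it on 11 arrays.

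The arrays came from Wistar rats, and compared the ductus arteriosus (DA), which before birth shunts blood from the pulmonary artery into the aorta, with the descending aorta. The F group was fetuses at the 21st day of gestation, and the N group was neonates taken 30 minutes after delivery by cesarean section. The study's methods describe no transgene and no drug treatment. ECs were sorted from enzyme-dispersed vessels as CD31-positive and CD45-negative cells, and each of the 4 groups (DA F, aorta F, DA N and aorta N) had 3 arrays. The RNA on an array came from many pooled litters, so that the spread behind each p-value is one between pools, and the labels do not say which litters went into which pool. The litter counts in the study's methods imply separate litters for each replicate and, being given by stage, the same litters for both vessels. The labels do not say whether DA and aortic arrays of the same number share litters, and the main fit did not pair them. Values are log2 signals of the Rat Gene 1.0 ST array, and a difference of 1 on this scale is a fold change of 2. The array medians lay between 5.63 and 5.76. The signal of the lys control differed by replicate number, at 4.53 to 6.17 where the number was 1, at 4.16 to 4.78 where it was 2 and at 3.41 to 3.53 where it was 3. Where the number was 1 it also differed by vessel, the 6.17 lying on a DA array. On the aortic arrays of that number Des, at 5.08 in F and 5.32 in N, still reached the control. The source of this imbalance was not tested.

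In smooth muscle, actin thin filaments slide along filaments of smooth muscle myosin. Calcium and calmodulin switch on myosin light chain kinase, which phosphorylates the regulatory light chain, while tropomyosin, calponin and transgelin sit on the actin filament. Myocardin, a coactivator of serum response factor, turns on most of these genes through CArG boxes in their regulatory DNA. The DA is the artery whose muscle contracts to close the vessel after birth. A normal endothelium holds little of this apparatus, although ECs use some of its parts. In such bulk RNA a change in the number of cells of a type and a change in RNA per cell cannot be told apart.

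The upstream sequences of the members show which of them carry these boxes close to a start. RefSeq promoters (build GRCr8, 250 bases before the annotated start and 50 after) were given for 6 of the 10 members, Acta2, Actg2, Tpm1, Cnn1, Mylk and Des, and for none of Tagln, Myh11, Myl9 and Myocd. A strict CArG box was in 0 of the 6 windows, against 1.64% of 33469 promoters of the same length. A CArG box with 1 of its central bases replaced by C or G was found in 1 member, Acta2, which had 2 of them, against 8.1% of all promoters. The MCAT motif, CATTCC on either strand, the site of TEAD factors, was found in 3 members, Acta2, Tpm1 and Mylk, against 14.2% of all promoters. The window began at the outer start of the gene for Acta2, Cnn1 and Des, and inside the annotated gene for Actg2, Tpm1 and Mylk. The 250 bases before the start of these first 3 genes are shown because they lie outside any transcribed part of their own gene. The strand is given after the position, capitals mark the MCAT motif and then both CArG-like boxes, and the last base is the one before the start. These are letter matches, not sites of binding.
Acta2, chr1:241172504-241172753, minus strand: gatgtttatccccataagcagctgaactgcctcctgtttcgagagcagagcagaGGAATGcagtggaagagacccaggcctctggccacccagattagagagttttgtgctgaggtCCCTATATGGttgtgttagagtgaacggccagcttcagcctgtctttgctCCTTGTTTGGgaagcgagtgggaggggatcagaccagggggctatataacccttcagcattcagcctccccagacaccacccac
Cnn1, chr8:28908187-28908436, plus strand: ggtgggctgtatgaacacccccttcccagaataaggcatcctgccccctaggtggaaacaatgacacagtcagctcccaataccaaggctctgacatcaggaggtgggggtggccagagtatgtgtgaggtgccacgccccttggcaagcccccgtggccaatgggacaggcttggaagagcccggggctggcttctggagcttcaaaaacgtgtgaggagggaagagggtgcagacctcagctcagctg
Des, chr9:84299376-84299625, plus strand: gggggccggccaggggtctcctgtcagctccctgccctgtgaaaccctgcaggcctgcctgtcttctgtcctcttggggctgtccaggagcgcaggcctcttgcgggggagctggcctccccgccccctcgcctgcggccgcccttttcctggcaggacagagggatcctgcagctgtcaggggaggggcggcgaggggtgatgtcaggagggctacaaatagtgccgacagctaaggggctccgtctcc
In the Acta2 sequence the MCAT motif began 196 bases and the boxes 134 and 84 bases before the start. The Cnn1 and Des stretches held no match to any of the 3 patterns.

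Over both stages, 8 of the 10 contractile genes differed between DA ECs and aortic ECs. The genes higher in the DA were Actg2, Tagln, Des, Tpm1, Acta2 and Myl9, from 2.86-fold for Actg2 to 1.47-fold for Myl9, and the genes lower in the DA were Myocd and Mylk, at 0.664-fold and 0.73-fold (limma, adjusted p under 0.05 over 18690 probe sets). Cnn1 and Myh11 lay above the aorta in the mean but did not pass. In the same comparison 8.12% of all tested probe sets were called, 3.19% as higher and 4.93% as lower. The median difference of the members was 0.57 on the log2 scale, and that of all tested probe sets was 0. None of the 8 calls was lost when any 1 array was left out, and Myh11 passed without DA F replicate 3 (adjusted p = 0.0209). When the replicate number was fitted as a block all 10 members passed, 8 higher and 2 lower, against 17.8% of all probe sets (limma, adjusted p = 0.0372 for Cnn1 and 0.0185 for Myh11). The count depended on the arrays of replicate 2. Without all of them 1 member, Actg2, still passed (adjusted p = 0.0218), against 1.94% of all probe sets. Without those of replicate 1, 7 passed (5.96% of all probe sets), Mylk being lost. Without those of replicate 3, 6 passed (4.78% of all probe sets), with Myl9, Mylk and Myocd lost and Myh11 gained. These 3 settings were chosen after seeing the data.

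**Figure D1:**
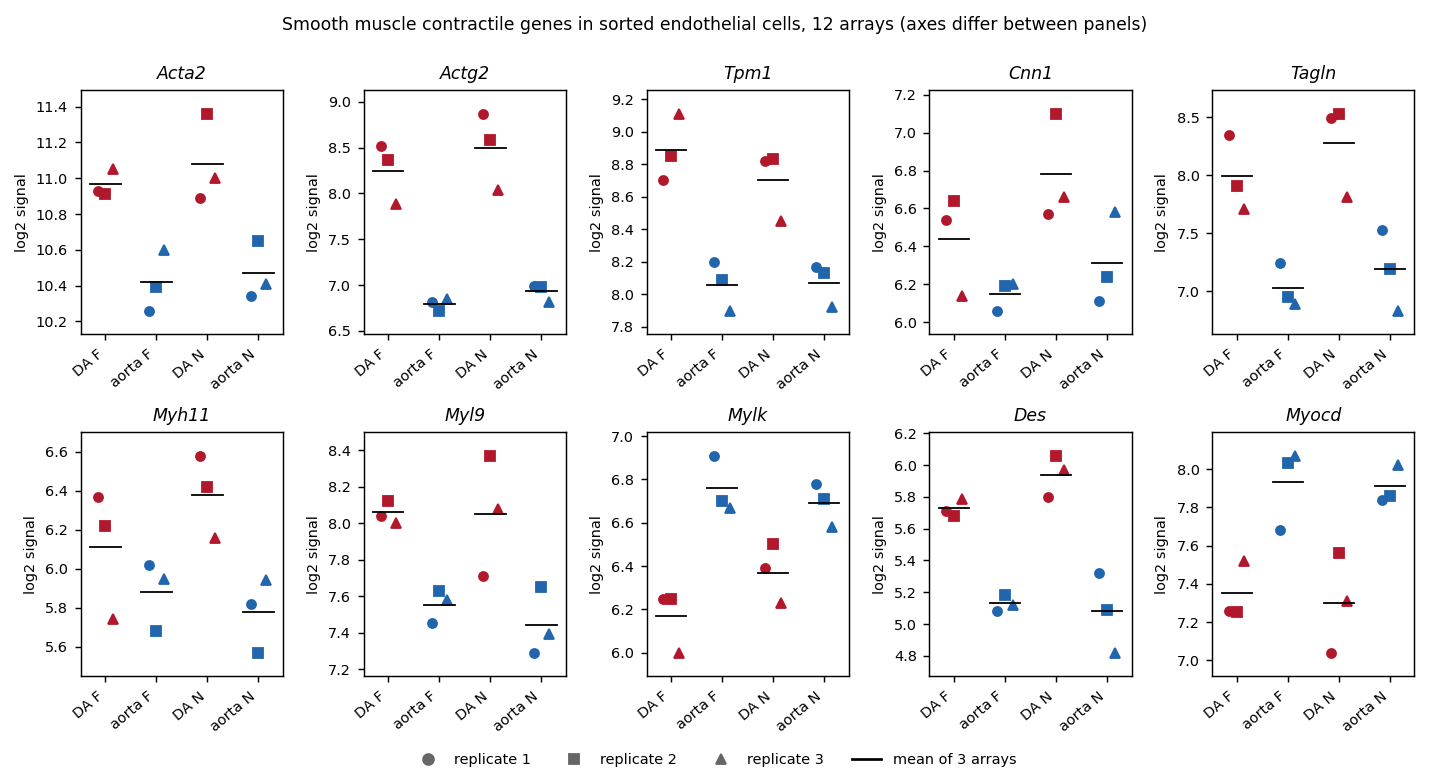
Log2 signal of each contractile gene on the 12 arrays, by group, with 1 panel per gene and its own axis. Red points are DA ECs and blue points aortic ECs, the point's shape gives the replicate number and the line the mean of 3 arrays. All 6 DA arrays lie above all 6 aortic arrays for Acta2, Actg2, Tpm1, Tagln, Myl9 and Des and below them for Mylk and Myocd.

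Taken array by array, the 6 DA arrays did not overlap the 6 aortic arrays for 8 of the 10 members, 6 of them higher and 2 lower. Of all tested probe sets 6.98% were separated in this way, 2.91% with the DA higher and 4.07% with it lower. The gap between the nearest arrays was widest for Actg2, at 0.89, and narrowest for Myl9, at 0.06. Cnn1 and Myh11 were the members whose arrays overlapped.

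The actins of the thin filament come first. Acta2 encodes smooth muscle alpha-actin, the main actin of arterial muscle. Its log2 signal was 10.93, 10.91 and 11.05 in DA F and 10.26, 10.39 and 10.60 in aorta F. In the neonates it was 10.89, 11.36 and 11 in the DA and 10.34, 10.65 and 10.41 in the aorta. Every DA array was above every aortic array, with a gap of 0.24 between the nearest. The DA exceeded the aorta by 0.58 ± 0.105 (SE, 6 arrays a vessel) over both stages (limma, adjusted p = 0.00355). Within a stage the difference was 0.55 in F (adjusted p = 0.0696) and 0.62 in N (adjusted p = 0.0436), so that it passed in N but not in F. The N call was lost without any 1 of 9 arrays, namely aorta F replicate 2, each DA F array, each aorta N array and DA N replicates 2 and 3, with adjusted p up to 0.224. With the replicate block both stages passed (adjusted p = 0.0127 in F and 0.00756 in N).

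Actg2 encodes smooth muscle gamma-actin, the actin typical of visceral muscle. Its DA signal was 8.52, 8.36 and 7.88 in F and 8.87, 8.58 and 8.04 in N. The aortic signal was 6.81, 6.72 and 6.85 in F and 6.99, 6.98 and 6.82 in N. The aortic arrays lay between 6.72 and 6.99, and the DA arrays, between 7.88 and 8.87, were more spread. The DA was 2.76-fold higher in F (log2 difference 1.46 ± 0.204 SE, 3 arrays a group, limma adjusted p = 0.00114) and 2.96-fold higher in N (1.57 ± 0.204, adjusted p = 0.000767). Over both stages the 95% interval of the log2 difference was 1.20 to 1.83. It was the largest difference among the 10 members at each stage, and it passed in all 3 comparisons without any 1 array.

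The other actins on the array give the setting for both. Acta1, the skeletal alpha-actin, differed by 0.32 between the vessels (limma, adjusted p = 0.156, or 0.00503 with the replicate block), and Actc1, the cardiac alpha-actin, by 0.09 (adjusted p = 0.848). The cytoplasmic actins Actb and Actg1 differed by 0.02 and 0.08 (adjusted p = 0.966 and 0.831). Actin genes are close in sequence, and how far their probe sets read each other was not tested.

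Among the proteins on the thin filament, Tpm1, Cnn1 and Tagln did not behave alike. Tpm1, alpha-tropomyosin, which many cell types use, was at 8.70, 8.85 and 9.11 in DA F and 8.20, 8.09 and 7.90 in aorta F. In N it was at 8.82, 8.83 and 8.45 in the DA and 8.17, 8.13 and 7.92 in the aorta. The groups were separate at both stages, and the DA was 1.77-fold higher in F (log2 difference 0.82 ± 0.151 SE, limma adjusted p = 0.00702) and 1.54-fold higher in N (0.63 ± 0.151, adjusted p = 0.0431). The call in F held without any 1 array. The call in N was lost without any 1 of 8 arrays, which were each aorta N array, DA N replicates 1 and 2, aorta F replicates 2 and 3 and DA F replicate 2, with adjusted p up to 0.213.

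Tagln, or transgelin, an actin-binding protein that is among the earliest markers of smooth muscle, was at 8.35, 7.91 and 7.71 in DA F and 7.24, 6.95 and 6.89 in aorta F. In N the DA was at 8.49, 8.53 and 7.81 and the aorta at 7.53, 7.19 and 6.83. In every group the array of replicate 3 was the lowest, and the vessels did not overlap at either stage. The DA was 1.95-fold higher in F (log2 difference 0.96 ± 0.236 SE, limma adjusted p = 0.0412) and 2.13-fold higher in N (1.09 ± 0.236, adjusted p = 0.0237). Over both stages the difference was 1.03 ± 0.167 (adjusted p = 0.0016). With the replicate block its SE fell to 0.122 in each stage. The F call was lost without any 1 of 7 arrays, aorta F replicates 1, 2 and 3, DA F replicates 1 and 2, aorta N replicate 2 and DA N replicate 2, with adjusted p up to 0.157. The N call was lost without aorta N replicate 2 or 3 or DA N replicate 1 or 2, with adjusted p up to 0.134.

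Cnn1, or calponin, which binds actin and slows the myosin ATPase, is a marker of mature smooth muscle. Its signal was 6.54, 6.64 and 6.14 in DA F and 6.06, 6.19 and 6.20 in aorta F. In N it was 6.57, 7.10 and 6.66 in the DA and 6.11, 6.24 and 6.58 in the aorta. The groups overlapped at both stages, and in F the replicate 3 array of the DA was 0.07 below that of the aorta (a log2 difference of -0.07). The fitted difference was 0.29 ± 0.179 (SE) in F (limma, adjusted p = 0.601) and 0.47 ± 0.179 in N (adjusted p = 0.295). Over both stages it was 0.38 with a 95% interval of 0.10 to 0.65 (adjusted p = 0.104).

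The myosin side of the apparatus held both directions. Myh11 encodes the smooth muscle myosin heavy chain, the most specific marker of the lineage. Its signal was 6.37, 6.22 and 5.74 in DA F and 6.02, 5.68 and 5.95 in aorta F, and these groups overlapped. In N it was 6.58, 6.42 and 6.16 in the DA and 5.82, 5.57 and 5.94 in the aorta, and these did not. The difference was 0.23 ± 0.181 (SE) in F (limma, adjusted p = 0.725) and 0.61 ± 0.181 in N (adjusted p = 0.124, or 0.0323 with the replicate block). Over both stages it was 0.42 with a 95% interval of 0.14 to 0.70 (adjusted p = 0.0726). The DA F array of replicate 3 lay below the aorta F arrays of replicates 1 and 3.

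Myl9, the regulatory light chain that the kinase phosphorylates, was at 8.04, 8.12 and 8.0 in DA F and 7.45, 7.63 and 7.58 in aorta F. In N the DA arrays were at 7.71, 8.37 and 8.08 and the aortic arrays at 7.29, 7.65 and 7.39. The groups were separate at each stage, and the DA N array of replicate 1 lay close to the aortic array of replicate 2. The DA exceeded the aorta by 0.50 ± 0.161 (SE) in F (limma, adjusted p = 0.135) and by 0.61 ± 0.161 in N (adjusted p = 0.0697), and by 0.56 ± 0.114 over both stages (adjusted p = 0.00803). The N difference passed when DA N replicate 1 was left out (adjusted p = 0.013), and both stages passed with the replicate block (adjusted p = 0.0134 and 0.00544).

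Mylk, the gene of myosin light chain kinase, went the other way from its substrate Myl9. The locus also gives a long kinase that ECs themselves use in barrier control, and whether the probe set reads the short or the long form was not tested. Its signal was 6.25, 6.25 and 6.0 in DA F and 6.91, 6.70 and 6.67 in aorta F. In N it was 6.39, 6.50 and 6.23 in the DA and 6.78, 6.71 and 6.58 in the aorta. Every DA array was below every aortic array, with a gap of 0.08. The log2 difference was -0.59 ± 0.127 (SE) in F (limma, adjusted p = 0.0194) and -0.32 ± 0.127 in N (adjusted p = 0.341), and over both stages -0.45 ± 0.0899 (adjusted p = 0.00659). The F call was lost without aorta F replicate 1 or 2 or DA F replicate 3, with adjusted p up to 0.0962. The F and N differences themselves were not shown to differ, at 0.27 with a 95% interval of -0.12 to 0.67 (adjusted p = 1).

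Des and Myocd are the members outside the actomyosin filaments. Des encodes desmin, the intermediate filament of muscle and of many pericytes. Its signal was 5.71, 5.68 and 5.79 in DA F and 5.08, 5.18 and 5.12 in aorta F. In N it was 5.80, 6.06 and 5.97 in the DA and 5.32, 5.09 and 4.82 in the aorta. The 12 values fell into separate ranges with a gap of 0.36, the widest after Actg2. The DA was 1.51-fold higher in F (log2 difference 0.60 ± 0.135 SE, limma adjusted p = 0.0261) and 1.82-fold higher in N (0.86 ± 0.135, adjusted p = 0.00307). The F call was lost when any 1 of the 6 F arrays was left out (adjusted p up to 0.103), and the N call held without any 1 array.

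Myocd, the gene of myocardin, was lower in the DA, opposite to the 6 members that were higher there. Its signal was 7.26, 7.25 and 7.52 in DA F and 7.68, 8.03 and 8.07 in aorta F. In N it was 7.04, 7.56 and 7.31 in the DA and 7.84, 7.86 and 8.02 in the aorta. All 6 DA arrays were below all 6 aortic arrays, with a gap of 0.11. The log2 difference was -0.58 ± 0.158 (SE) in F (limma, adjusted p = 0.0703), -0.60 ± 0.158 in N (adjusted p = 0.0673) and -0.59 ± 0.112 over both stages (adjusted p = 0.00477). Each stage passed with the replicate block (adjusted p = 0.00765 and 0.00719). The F difference also passed without aorta F replicate 1 (adjusted p = 0.0401) or DA N replicate 1 (adjusted p = 0.0453), and the N difference without aorta F replicate 1 (adjusted p = 0.0497).

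**Figure D2:**
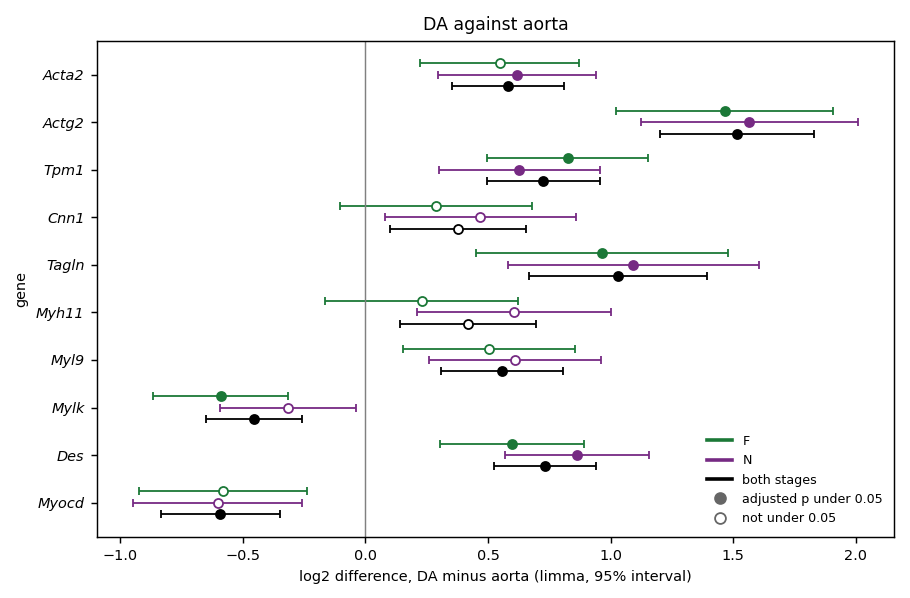
Fitted log2 difference between DA and aorta for each contractile gene in F (green), in N (purple) and over both stages (black), with 95% intervals from limma. Positive values are higher in the DA, and filled points have an adjusted p under 0.05. Over both stages 6 genes are filled on the right of 0, 2 (Mylk and Myocd) on the left, and Cnn1 and Myh11 are open.

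Counted by stage, 5 of the 10 members were called in F and 5 in N. In F these were Actg2, Tpm1, Tagln and Des as higher and Mylk as lower, against 3.77% of all tested probe sets. In N these were Acta2, Actg2, Tpm1, Tagln and Des, all higher, against 3.14% of all tested probe sets. At an unadjusted p under 0.05, 8 members differed in F and 10 in N (limma). The share of all tested probe sets under that threshold is not given here, so these counts have no background. Arrays of the 2 vessels did not overlap for 6 higher and 2 lower members in F (18.6% of all probe sets were separate) and for 7 higher and 2 lower members in N (15.3%). With the replicate block 8 members were called at each stage, where 10.4% of all probe sets were called in F and 7.27% in N. The counts within a stage moved with single arrays. In F the count was 2 without aorta F replicate 2 and 3 without any other 1 of the 6 F arrays. In N it was 2 without aorta N replicate 2 or 3 or DA N replicate 2, and 3 without aorta F replicate 2, DA F replicate 2 or aorta N replicate 1. It was 0 at both stages without all arrays of replicate 2, with 0.583% and 0.342% of all probe sets then called. Then 7 and 7 members had an unadjusted p under 0.05 (limma), again without a background share.

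Within a replicate number the sign was steady. Arrays of the same number gave a DA minus aorta difference of the same sign in all 3 pairs for 8 of the 10 members in F, the exceptions being Cnn1 and Myh11, each of which turned negative in replicate 3 (-0.07 and -0.20). In N the 3 pairs had the same sign for all 10 members. The share of all probe sets with 3 like signs is not given, so these counts have no background. The spread within a group was small for most members, with an SD between 0.05 and 0.42 over the groups and a median of 0.18, and it was largest for Actg2 in DA N.

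Birth was asked about by comparing N with F in the same vessel. No member was called in either vessel. In the DA the log2 difference ran from -0.19 for Tpm1 (95% interval -0.52 to 0.14) to 0.34 for Cnn1 (-0.05 to 0.73). There 7 of the 10 members were above 0, as were 55.4% of all tested probe sets. In the DA 6 members were higher in N in all 3 pairs of arrays with the same number and 0 were lower in all 3. In the aorta 1 was higher and 0 were lower in all 3 pairs. The share of all probe sets with such pairs is not given, and no source used here says what the numbers stand for. The fitted aortic difference ran from -0.11 for Myl9 to 0.16 for Cnn1 and Tagln. Of the 10 members 5 were above 0 there, as were 50.3% of all tested probe sets. In limma 0 members passed in either vessel, and 0 passed at an unadjusted p under 0.05, by limma without the block. The methods' t-test with Benjamini-Hochberg adjustment also called 0. Of all tested probe sets 0.00535% were called for the DA, and for the aorta 0%. The members' median was 0.21 in DA ECs and -0.005 in aortic ECs, where all tested probe sets had medians of 0.02 and 0.001. With the replicate block Tagln and Mylk reached an unadjusted p of 0.0374 and 0.0432 in the DA, and their adjusted p was 0.649 and 0.667 (limma).

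**Figure D3:**
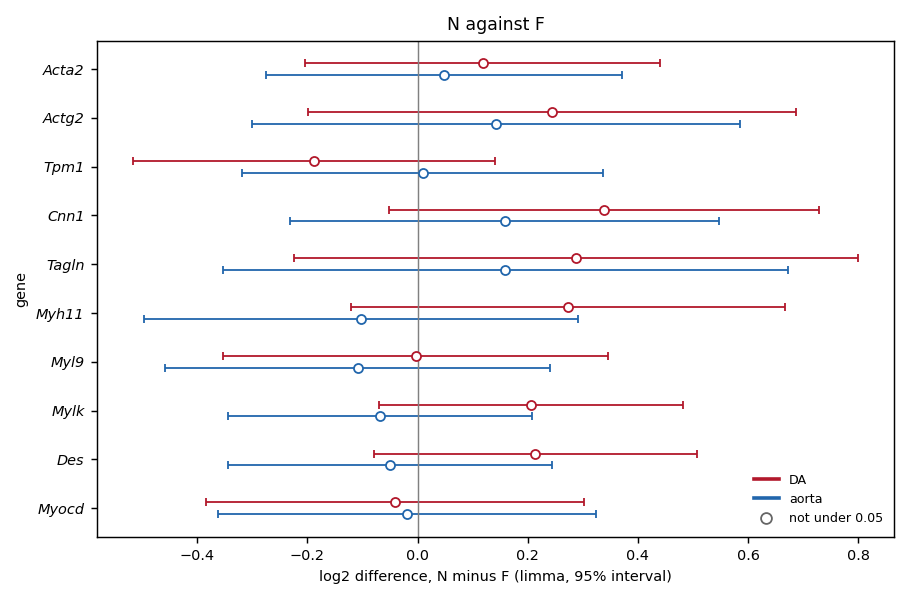
Fitted log2 difference between N and F for each contractile gene in the DA (red) and in the aorta (blue), with 95% intervals from limma. Positive values are higher in N. Each interval spans 0, and no gene has an adjusted p under 0.05.

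Among the members only Des had all 3 DA N arrays above all 3 DA F arrays, at 5.80 to 6.06 against 5.68 to 5.79, where 5.03% of all probe sets were separate one way or the other. Its log2 difference was 0.21 ± 0.135 (SE), with a 95% interval of -0.08 to 0.51 (limma, adjusted p = 1). In the aorta 0 members were separate, against 4.39% of all probe sets. The array of replicate 2 was the highest of the DA N group for 8 of the 10 members. The widest interval in the DA was that of Tagln, whose upper limit was 0.80 on the log2 scale with an SE of 0.236, and the replicate block lowered that SE to 0.122.

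The vessel difference in N was set against that in F as a term of its own. No member passed (limma, adjusted p = 1 for each), and 0% of all tested probe sets did. The term ran from -0.20 for Tpm1 (95% interval -0.66 to 0.27) to 0.38 for Myh11 (-0.18 to 0.93). The members called at 1 stage and not at the other, Acta2 and Mylk, were thus not shown to differ between the stages.

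Other genes of the contractile apparatus were read beside the members. Of 22 other smooth muscle contractile and dense-body genes, 18 had a named probe set and all of those were tested. Over both stages 1 was higher in the DA, 1 was lower and 16 did not pass, where 8.12% of all tested probe sets were called. Their median log2 difference was 0.01, that of the members 0.57 and that of all tested probe sets 0, and the lists were not tested against each other. The gene that was higher, Csrp2, a LIM protein of arterial smooth muscle, differed by 0.96 ± 0.0974 (SE, limma adjusted p = 4.2e-05). The gene that was lower, Aoc3, an amine oxidase of the smooth muscle surface, differed by -0.51 ± 0.104 (adjusted p = 0.00779). Tpm2, the beta-tropomyosin of the same filament as Tpm1, differed by 0.36 (adjusted p = 0.209). Cald1, which encodes caldesmon on that filament, differed by -0.29 (adjusted p = 0.205), Vcl, or vinculin, by 0.29 (adjusted p = 0.0687) and Tns1, or tensin, by -0.26 (adjusted p = 0.115). With the replicate block 2 of the 18 were higher and 3 lower, against 17.8% of all probe sets.

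Of 16 regulators of the contractile programme, 11 were tested, and the median difference was 0.04. Tbx18, a T-box factor of mural cell and epicardial lineages, was higher in the DA by 1.15 ± 0.073 (SE, limma adjusted p = 8.78e-07). Fhl2, a LIM-only cofactor of serum response factor, was higher by 0.84 ± 0.0854 (adjusted p = 4.11e-05). Fhl1, its relative, was lower at -0.39 ± 0.0821 (adjusted p = 0.0102). The other 8 did not pass. Srf, the factor that myocardin binds, differed by 0.11 (adjusted p = 0.81), Klf4, a repressor of contractile genes, by -0.12 (adjusted p = 0.716) and Smad3, which carries TGF-beta signals, by -0.21 (adjusted p = 0.299).

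Among 12 tested genes of excitation and relaxation, of 15 listed, the median was 0.01 and 1 passed. This was Pde5a, the phosphodiesterase that breaks down cyclic GMP, at 0.54 ± 0.118 (SE, limma adjusted p = 0.0127). The differences of the list ran from -0.45 to 0.54, with 6 of the 12 above 0. Among those above 0 were the channel genes Kcnmb1, Cacna1c and Kcna5, at 0.35, 0.31 and 0.25 (limma, adjusted p = 0.0684, 0.101 and 0.271). Under the replicate block 3 genes of the list were higher and 4 lower. None of 13 tested non-muscle actomyosin genes passed, at a median of 0.09, and with the replicate block 1 did, Tmsb4x, a thymosin that binds actin monomers (0.22, limma adjusted p = 0.0431 with the block). Of 11 tested striated muscle genes 1 did, Tnnt2, a cardiac troponin, which was lower in the DA (-0.70 ± 0.107, adjusted p = 0.00107). With the block 1 striated muscle gene was higher, Acta1, and 2 were lower, Tnnt2 and Tnni3.

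**Figure D4:**
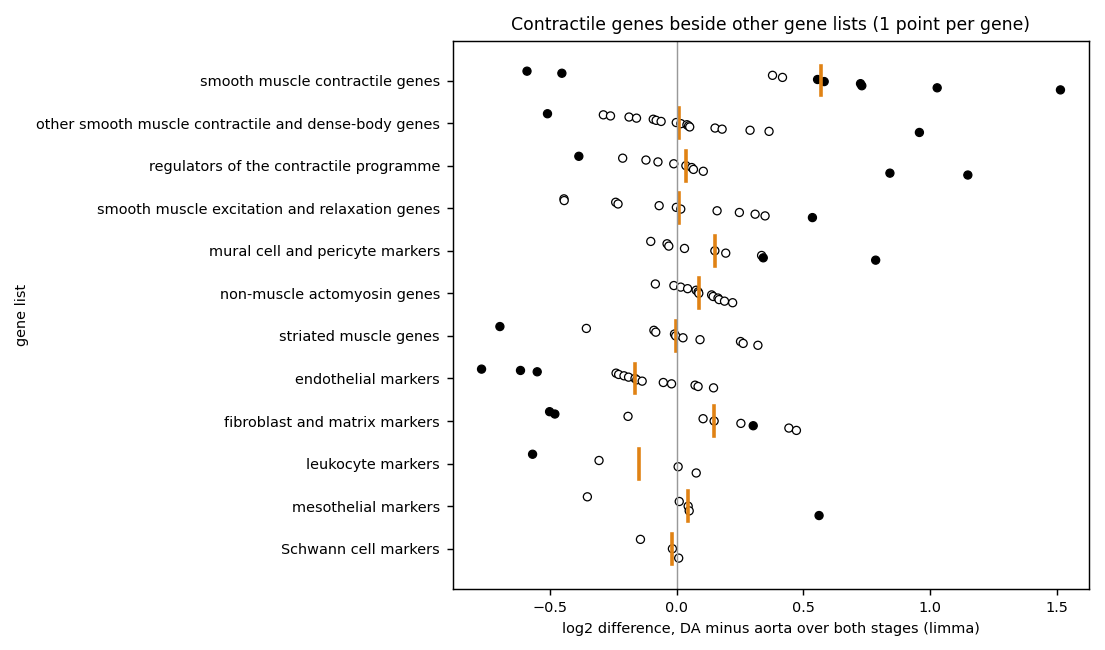
Log2 difference between DA and aorta over both stages, 1 point for each tested gene, for the contractile genes and for 11 other lists. Filled points have an adjusted p under 0.05 in limma, and the orange line is the median of the list. The contractile genes have a median of 0.57, and the medians of the other lists lie between -0.165 and 0.151.

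Markers of the other cells that a sort could hold were read beside the members. All 15 endothelial markers with a named probe set passed the lys filter. Pecam1, the gene of the CD31 antigen, Cdh5, Tek and Kdr were at or above the lys control on every array. So were Acta2 and the mural cell marker Rgs5, so this criterion does not single out ECs. The log2 signal of Rgs5 was 12.81 to 12.95 in the DA and 12.63 to 12.78 in the aorta. That of Pecam1 was 11.9 to 12.16 and 12.04 to 12.28. Pecam1, Cdh5, Tek and Kdr differed between the vessels by -0.14, -0.05, -0.16 and 0.08 (limma, adjusted p = 0.466, 0.837, 0.463 and 0.79). The endothelial list as a whole had 3 genes lower in the DA and none higher, Plvap (-0.77), Cldn5 (-0.62) and Flt1 (-0.55), and a median of -0.165. With the replicate block Nos3 was lower as well (-0.24, limma adjusted p = 0.0268). Its summed linear signal was 26520 to 27853 in DA F, 28578 to 31078 in aorta F, 27027 to 28399 in DA N and 29783 to 30990 in aorta N. The summed signal of the contractile genes was 3694 to 3805, 2450 to 2756, 3620 to 4747 and 2534 to 2856 in the same order, so that the vessels were apart in both sums and in opposite directions. In the contractile sum the brightest gene, Acta2, weighs most.

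Mural cell and pericyte markers moved with the members in part. Of 12 listed, 9 were tested and 2 were higher in the DA, Cspg4, the NG2 proteoglycan, at 0.79 ± 0.11 (SE, limma adjusted p = 0.00053), and Pdgfrb, the receptor that recruits pericytes, at 0.34 ± 0.0847 (adjusted p = 0.025). Kcnj8 and Rgs5 differed by 0.34 and 0.19 (adjusted p = 0.21 and 0.136), and with the replicate block they passed too (limma, adjusted p = 0.0186 and 0.0381), which made 4 higher and 0 lower. Of all tested probe sets 3.19% were called higher without the block and 7.71% with it. Differences of the 9 tested genes ran from -0.1 to 0.79, with 6 above 0 and the rest below. The list's summed signal was 9522 to 9719 in DA F, 8563 to 9493 in aorta F, 9783 to 10275 in DA N and 8802 to 8903 in aorta N, and so it too was higher in the DA without overlap within a stage. A linear sum mostly follows its brightest gene, here Rgs5, so it does not describe the list evenly. The mean of the list's log2 signals, which weights each gene alike, overlapped in N, at 6.83 to 7.11 in the DA and 6.66 to 6.89 in the aorta. The part of such cells in the difference of the contractile genes was not tested.

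Fibroblast and matrix markers went both ways. Of 10 listed, 9 were tested. Col1a2 was higher (0.30, limma adjusted p = 0.0287), while Fbln1 (-0.50, adjusted p = 0.000869) and Col1a1 (-0.48, adjusted p = 0.00453) were lower, and the median was 0.15. Dpt, Dcn and Col3a1 differed by 0.47, 0.44 and 0.25 and passed with the replicate block alone (limma, adjusted p = 0.0661, 0.0745 and 0.144 without it and 0.00909, 0.0184 and 0.0278 with it), which gave 4 higher and 2 lower. The summed signal of the list overlapped between the vessels at each stage, at 7643 to 9199 in DA F and 8671 to 9827 in aorta F, and 8677 to 9843 in DA N and 8783 to 9934 in aorta N. Among leukocyte markers 4 of 8 were tested, Ptprc, the gene of the CD45 antigen, was below the lys mean, and Cd14 was lower in the DA (-0.57, limma adjusted p = 0.0224), joined by Cd68 with the block (-0.31, adjusted p = 0.0302). Among mesothelial markers 5 of 8 were tested and Msln was higher (0.56, limma adjusted p = 0.00244), while Krt19 was lower with the block alone (-0.35, adjusted p = 0.097 without it and 0.0234 with it). None of 3 tested Schwann cell markers passed. The part of these cells was not tested either.

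The genes whose profile over the 12 arrays was nearest to that of 3 members were sought among 11223 genes, by the root mean square difference of log2 signals after each probe set was centred on its own mean. Nearest to Acta2 were Cpne7 (0.104), Olfml3 (0.107), Cmtm3 (0.109), Lhfpl6 (0.112) and Myl9 (0.119), so that a second member stood at rank 5. Des stood at rank 67, Tagln at rank 5634, and Actg2, Mylk and Myocd at ranks 10097, 10188 and 10568. The distance grows with the size of a difference as well as with its direction, and Tagln and Actg2 were higher in the DA as Acta2 was. Nearest to Actg2 were Tomm5 (0.204), C1qtnf1 (0.223), Slc43a1 (0.236), Sp100 (0.239) and Mfap5 (0.24), with Tagln at rank 15 (0.295). The study lists the probe set named Tomm5 here under the symbol Fbxo10. Nearest to Myh11 were Slc28a2 (0.125), Tedc2 (0.167), Fbl (0.169), Gem (0.171) and Bicd2 (0.174), and its nearest member was Cnn1, at rank 129 (0.224). These distances describe the same arrays as the differences above and share their pools.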

How the data were processed

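RNA of ECs sorted from the DA and the aorta of F and N rats was measured on 12 arrays (Rat Gene 1.0 ST), and groups and replicate numbers came from the labels. The deposited table holds a log2 signal for each probe set, which the authors had normalized by a method not given in the sources used here. Of 26468 probe sets, 15313 carried 1 gene symbol in the platform annotation, 317 several and 10838 none. Genes without a named probe set, such as Ednra, were not analysed here. The values were used as deposited, and 3 arrays a group limit the precision.

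Probe sets with a mean over the 12 arrays at or above the lys spike, 4.44 on the log2 scale, were tested, which kept 18690. A mean was fitted for each group in limma 3.58.1 (R 4.3.3), and p-values were adjusted by Benjamini-Hochberg over all of them, with calls at 0.05. Tables were joined in Python 3.11.15. Promoters were from RefSeq (GRCr8). The procedure was tested on simulated data.

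The members and gene lists were chosen with earlier results of these data known. Named were all members, up to 6 genes of each list with the largest vessel difference, 4 endothelial markers, Actb and Actg1 and the 5 genes nearest to Acta2, Actg2 and Myh11, and list genes beyond those the text gives enter only in the counts. Some single genes are not reported here. Deviations from group means of arrays with the same replicate number correlated at 0.5393 to 0.82 for number 1, 0.1025 to 0.3012 for number 2 and 0.3928 to 0.7352 for number 3, and of different numbers at -0.738 to 0.3678, across genes, which are not independent replicates. The numbers were therefore also fitted as a block, which joins all arrays of a number, F and N alike. No source used here says what the numbers stand for. The alternatives tried were quantile normalization, other filters on low signals, a trended and robust fit, only the groups compared, the replicate block, the methods' t-test and leaving out arrays.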

Additional observations from a re-analysis of the deposited data

How the results depend on the processing

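No direction of a member's vessel difference reversed under 23 alternatives. Most kinds of alternative could not reverse one. Other filters, the replicate block, the trended and robust fit, fitting only the groups compared and the t-test leave differences between group means unchanged. Only quantile normalization and leaving out arrays could move them, and these reuse the same arrays. Over all 6 comparisons, 1202 of 1314 recomputed member values kept their side of the threshold, 18 gained a call and 94 lost one. All gains and losses lay among the 657 values of the vessel contrasts. In the comparisons of N with F, and of the vessel difference between stages, no member was called under any alternative. Values of those comparisons thus all count as kept. Between DA and aorta in F, 5 members were called, and 8 with the replicate block (3.77% and 10.4% of all probe sets). The methods' t-test called 1, Actg2, at its unadjusted threshold with a fold of at least 2 (1.4% of all probe sets). Adjusted by Benjamini-Hochberg, that test called 1 (0.358%), which was Des (t-test, adjusted p = 0.0483). Actg2 did not pass then (t-test, adjusted p = 0.0933). With 1 array left out, 2 to 6 were called in F. In N, 5 were called, 8 with the replicate block and 3 without a filter on low signals (3.14%, 7.27% and 1.99% of all probe sets). When only the arrays of the groups compared were fitted, 2 were called in N. The methods' t-test in these 2 forms called 2 and 0 in N (1.29% and 0.235%). With 1 array left out, 2 to 6 were called in N. For fits of only the groups compared or without 1 array, the share of all probe sets is not given. Over both stages 8 were called, and 8 to 9 with 1 array left out. Without replicate 1, 2 or 3 of every group, settings added after seeing the data, the counts were 2, 0 and 2 in F and 3, 0 and 2 in N, and over both stages 1 without replicate 2. The shares of all probe sets were then 2.66%, 0.583% and 1.95% in F and 1.99%, 0.342% and 1.79% in N. Leaving arrays out leaves fewer samples; otherwise the cause was not tested. Quantile normalization gave 4, 4 and 8 in F, N and over both stages, against 4.07%, 3.31% and 8.92% of all probe sets. Another choice of probe set per gene was not run, since each member has 1. The replicate block changed no call between N and F in either vessel. Signals near the lys control are the least certain. Those of Des were low in the aorta, at 4.82 to 5.32. The array on which Des fell below the control was a DA array of replicate 1.

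Over all tested probe sets 705 were called between the vessels in F, 586 in N and 1518 for both stages together. The replicate block gave 1951, 1358 and 3327, and the methods' t-test, adjusted by Benjamini-Hochberg, gave 67 in F and 44 in N.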
